A study of Mus musculus with 3 samples.

Results

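The set described here comprises 44 genes that copy DNA and mend it during copying: the helicase that opens the double helix, the clamp and its loader, the polymerases, the enzymes that make deoxynucleotides, and proteins of recombination. Members were taken as the probe sets whose single gene symbol in the array's annotation was 1 of these 44. This gave 99 probe sets for 43 of the genes, out of 34944 probe sets with a single symbol for 18193 genes. No probe set was assigned to Chaf1a, so its signal was not analysed here, though its promoter window is among those searched below. RNA came from dental papillae, the mesenchyme inside the tooth germ, of ICR mice, an outbred stock. The papillae had been released enzymatically from lower first molar germs at embryonic day 16 (E16), embryonic day 18 (E18) and postnatal day 3 (P3). The labels give no mutation, transgene or treatment for any stage. Each stage is 1 array of RNA from over 20 pooled papillae, so no test or error between animals is possible and every comparison below is among 3 pooled samples.

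In each division cycle, origins of replication are licensed when the origin recognition complex, Cdc6 and Cdt1 load the ring-shaped MCM2-7 helicase on DNA. In S phase the kinase Cdc7 and the proteins Cdc45 and GINS turn that ring into a moving helicase, behind which primase, the replicative polymerases, the PCNA clamp and its RFC loader copy both strands. Many of these genes are transcribed in a burst at the G1/S transition under E2F factors, so their RNA is abundant in dividing tissue and scarce in cells that have left the cycle. In the tooth germ, papilla cells next to the epithelium stop dividing as they become odontoblasts, the cells that secrete dentin.

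The deposited values are ratios of each probe set to its own middle value over the 3 arrays, and signals in arbitrary units were recovered from the steps of those ratios. The ratio between 2 stages of a probe set does not depend on this recovery, whereas a signal may be understated, and with it the choice of probe set, the genes measured and the bounds at the floor. A floor was set at 82.0, the pooled median of all recovered signals, and lower signals were raised to it before taking log2. Genes were compared between 2 arrays if either reached the floor, and a difference with 1 side at the floor is a bound ("at least"). Each gene is represented by the probe set with the highest mean log2 signal. Of the 43 genes, 42 reached the floor at E16 and E18 and 40 at P3. Pole, the catalytic subunit of the leading-strand polymerase, stayed below it on all 3 arrays (17.1, 17.7 and 2.8 at E16, E18 and P3) and has no comparison.

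Replication and repair genes were lower at P3 than at E18 throughout the set. Of 42 measured members, 35 (83.3%) were lower by 2-fold or more at P3 against E18 and 0 higher by as much, where 11.7% and 4.04% of all 12122 measured genes were (1415 and 490). Under quantile normalization, which moved the split of all genes to 860 lower and 775 higher, 27 members were lower and 0 higher. The other 7 were lower by less, so that all 42 lay below their E18 signal, as did 59.6% of all genes. The median member was 2.98-fold lower (log2 difference -1.58, against -0.15 over all genes). Against E16, 33 members (78.6%) were lower by 2-fold or more at P3 and 0 higher, where 15.4% and 6.52% of all genes were. All 42 were lower at P3 than at E16 by some amount, against 60.0% of all genes, and the median log2 difference was -1.70. P3 was therefore the lowest of the 3 stages for every member by its chosen probe set, except that under quantile normalization Orc6 and Tipin lay 0.06 and 0.08 above E16 on the log2 scale, and under a scaling to probe sets above the floor Orc6 and Rfc3 lay 0.01 above it. Between E18 and E16 the direction was mixed and depended on the probe set. At E18, 4 members (9.52%) were lower and 3 higher than at E16 by 2-fold or more, close to the 7.98% and 7.99% of all genes. By any amount 24 were lower and 18 higher, against 52.6% lower among all genes, with a median log2 difference of -0.05. Over all 78 measured probe sets of the members, however, 54 were lower and 24 higher at E18, 15 and 4 of them by 2-fold or more. The most frequent course was a difference under 2-fold between E16 and E18 and then a signal lower by 2-fold or more at P3 against E18, found in 28 of 42 members and in 8.94% of all genes. The P3 against E18 and P3 against E16 comparisons share the P3 array, and P3 against E18 and E18 against E16 share the E18 array.

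**Figure D1:**
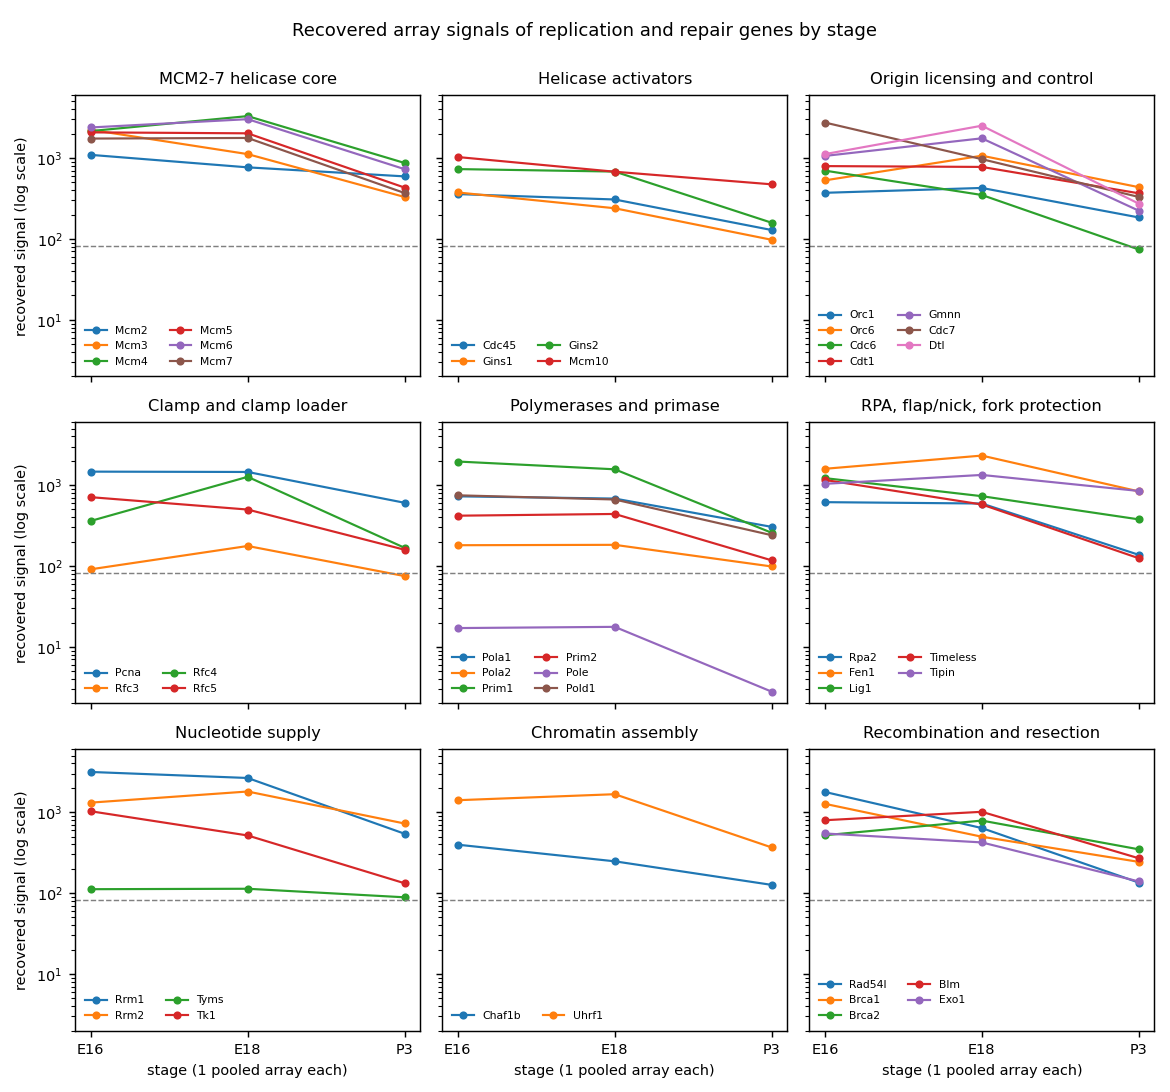
Recovered signal (arbitrary units, log axis) of each replication and repair gene at E16, E18 and P3, 1 pooled array per stage, in 9 functional groups; lines join the values of 1 gene and the dashed line is the floor of 82.0. Each line is the probe set used for the gene. All lines are lowest at P3, those of Mcm4, Mcm6, Dtl, Gmnn and Rfc4 peak at E18, and Pole lies under the floor throughout. Other measured probe sets of Mcm4, Mcm6 and Dtl were highest at E16.

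In a bulk sample, fewer dividing cells and less RNA per dividing cell cannot be told apart. General division markers moved with the set. Mki67, which marks cycling cells, read 2114, 2006 and 629.2 at E16, E18 and P3, and topoisomerase gene Top2a read 2771, 2650 and 824.0. Both were about as high at E18 as at E16 and 3.19-fold and 3.22-fold lower at P3 than at E18. Of 9 measured cell cycle markers, 7 were lower and 0 higher by 2-fold or more at P3 against E18.

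Other cell types also moved between the arrays. Dental epithelium markers were present in these papilla samples, with 8, 8 and 7 of 9 at or above the floor at E16, E18 and P3. They summed to 6597, 19905 and 3837 at E16, E18 and P3 over 9 genes, and all 8 measured ones were higher at E18 than at E16 and lower at P3 than at E18 by 2-fold or more. These 8 epithelial markers thus had their peak at E18, whereas the sum of the enamel markers, given below, was highest at P3. The median log2 difference of the epithelial markers at P3 against E18 was -2.49, beside -1.58 for the replication members. At P3 against E16, 3 of 8 epithelial markers and 33 of 42 replication members were lower by 2-fold or more. The medians there were -0.51 and -1.7. Macrophage and leukocyte markers summed to 2496, 4650 and 8596 over 12 genes, highest at P3. Odontoblast markers summed to 1734, 10489 and 27707 over 5 genes, and those of papilla mesenchyme, 9 genes all at or above the floor on every array, to 11426, 6171 and 5702. Dspp alone read 18982 at P3. At P3 against E18, 3 odontoblast markers were higher and 1, Dmp1, lower (4.75-fold) by 2-fold or more. Of the 9 mesenchyme markers, 7 were lower and 1, Dlx2, higher by 2-fold or more at E18 against E16. At P3 against E18, 1 was lower (Dlx2) and 1 higher (Msx1) by as much. Enamel markers summed to 954, 3942 and 11307 at the 3 stages, endothelial ones to 4027, 2014 and 2086, erythroid ones to 1874, 462 and 432, and Schwann cell ones to 290, 243 and 254. The part of these cell types in the result was not tested. The ratio of 3' over 5' actin probe sets was 0.51, 1.97 and 1.25 at E16, E18 and P3, and that of Gapdh 0.172, 0.245 and 0.061. These ratios divide recovered signals of different probe sets, so their level cannot be read as RNA quality. Only their change between stages does not depend on the recovery, and their part was not tested either.

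Because replication genes are textbook targets of E2F factors, promoter windows of 300 bases, 250 before and 50 after the annotated start, were taken from RefSeq (GRCm38.p6) and searched for E2F letters. The letters were TTTCCCGC, TTTGGCGC, TTTCGCGC and TTTGCCGC, sought exactly on both strands; TTTGGCGC and TTTCGCGC can overlap on opposite strands. Of 36 members with a window, 14 (38.9%) held at least 1 such site, against 2.6% of 27025 genes in the table. The CCAAT box, the letters CCAAT, was in 61.1% of members and 41.1% of all genes, and the CHR element TTTGAA, known from promoters of late cell cycle genes, in 11.1% and 20.2%. The median G and C content of the windows was 57.7% for members and 52.7% for all windows. The 14 members with a site had a median log2 difference of -1.61 at P3 against E18, with 13 lower by 2-fold or more; the 21 measured members with a window but no site had -1.47, with 16 lower by 2-fold or more. Among genes outside the set, 34.5% of other replication genes and 46.7% of G1/S regulators with a window held a site, against 0 of 11 nucleotide excision repair and 0 of 14 other nucleotide supply genes. A match describes letters only, and no binding was measured here. The windows of 4 helicase genes, a licensing regulator (Dtl) and a clamp loader gene (Rfc3) are shown because they hold sites in pairs or next to the start. All are written 5′ to 3′ on the gene's strand, which is the minus strand except for Mcm5, with the E2F letters of either strand in capitals.
Mcm3, chr1:20820263-20820562: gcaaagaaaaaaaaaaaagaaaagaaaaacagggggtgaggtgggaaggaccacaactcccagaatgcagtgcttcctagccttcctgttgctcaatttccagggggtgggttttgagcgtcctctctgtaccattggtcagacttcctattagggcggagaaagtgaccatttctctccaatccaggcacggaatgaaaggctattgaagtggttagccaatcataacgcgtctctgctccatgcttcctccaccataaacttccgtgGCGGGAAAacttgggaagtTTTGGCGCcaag
Mcm5, chr8:75109259-75109558: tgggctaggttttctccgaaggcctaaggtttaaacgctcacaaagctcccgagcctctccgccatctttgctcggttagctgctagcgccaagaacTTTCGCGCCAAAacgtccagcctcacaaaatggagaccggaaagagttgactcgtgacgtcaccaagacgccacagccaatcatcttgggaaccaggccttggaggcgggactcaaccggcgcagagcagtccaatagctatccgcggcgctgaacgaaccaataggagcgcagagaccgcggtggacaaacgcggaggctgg
Mcm6, chr1:128359656-128359955: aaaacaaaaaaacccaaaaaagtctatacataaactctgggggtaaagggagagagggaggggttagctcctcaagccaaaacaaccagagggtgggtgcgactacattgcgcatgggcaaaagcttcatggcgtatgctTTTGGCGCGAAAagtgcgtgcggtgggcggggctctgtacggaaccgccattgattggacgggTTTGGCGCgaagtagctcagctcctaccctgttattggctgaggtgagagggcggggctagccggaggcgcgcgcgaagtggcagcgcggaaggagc
Mcm7, chr5:138171834-138172133: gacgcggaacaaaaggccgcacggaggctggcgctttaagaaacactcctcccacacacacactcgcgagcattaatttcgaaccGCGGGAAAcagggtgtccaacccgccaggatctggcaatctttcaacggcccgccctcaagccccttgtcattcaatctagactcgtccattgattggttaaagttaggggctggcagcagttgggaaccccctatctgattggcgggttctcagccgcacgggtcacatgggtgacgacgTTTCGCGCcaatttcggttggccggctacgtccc
Dtl, chr1:191575495-191575794: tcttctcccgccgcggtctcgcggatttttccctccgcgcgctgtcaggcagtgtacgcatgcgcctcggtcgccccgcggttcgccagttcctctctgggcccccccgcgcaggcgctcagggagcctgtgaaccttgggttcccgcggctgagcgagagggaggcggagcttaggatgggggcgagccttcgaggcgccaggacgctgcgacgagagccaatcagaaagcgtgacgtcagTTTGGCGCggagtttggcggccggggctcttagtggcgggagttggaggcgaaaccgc
Rfc3, chr5:151651159-151651458: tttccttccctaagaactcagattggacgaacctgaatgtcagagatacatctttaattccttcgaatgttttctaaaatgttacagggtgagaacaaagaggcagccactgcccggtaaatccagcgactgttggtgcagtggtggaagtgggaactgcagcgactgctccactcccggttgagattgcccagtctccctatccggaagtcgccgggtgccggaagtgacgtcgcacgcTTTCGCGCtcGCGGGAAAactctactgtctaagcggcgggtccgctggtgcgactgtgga

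In Mcm5 and Mcm6 the capitals form 1 run of 12 bases, TTTCGCGCCAAA and TTTGGCGCGAAA, which reads as an E2F site on each strand. Mcm6 has another site beginning 47 bases before the start. In Dtl the site begins 8 bases before the start, and in Rfc3 a pair of sites begins 10 bases before it and at the start itself. For Mcm7 a second window of the table (chr5:138171217-138171516) held none.

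**Figure D2:**
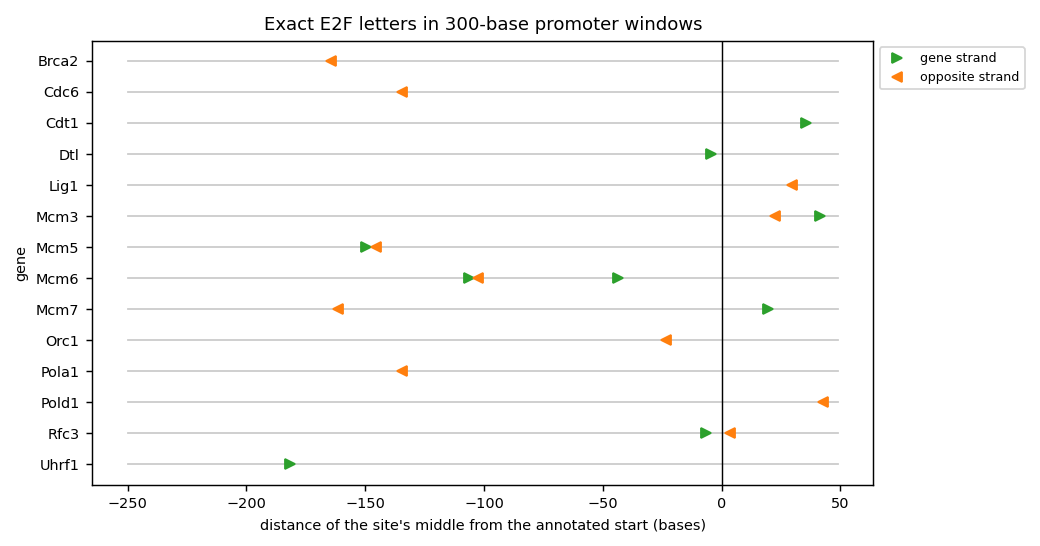
Positions of exact E2F letters in the promoter windows of the 14 replication and repair genes that hold any; the x axis is the distance in bases from the annotated start (0), and arrowheads point right for the gene's strand and left for the opposite one. Sites lie on both sides of the start, and those of Mcm5 and of Mcm6 farthest from it form overlapping pairs.

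The helicase core was mostly lower at P3. The 6 subunits Mcm2 to Mcm7 form the ring that unwinds DNA, and 5 of them were lower by 2-fold or more at P3 than at E18 (median 3.97-fold lower). Mcm5 read 2076, 2020 and 431.3 at E16, E18 and P3, 4.68-fold lower at P3 than at E18. Mcm7 read 1740, 1771 and 369.5, 4.79-fold lower. By these probe sets the embryonic arrays were nearly equal and P3 stood far below them. Other probe sets put a large difference before E18 as well, with 1399, 253.8 and 58.7 for Mcm5 and 3031, 890.0 and 179.8 for Mcm7, which are 5.51-fold and 3.40-fold lower at E18 against E16. Mcm4 read 2154, 3297 and 868.9, which is 3.79-fold lower at P3 than at E18 and 2.48-fold lower than at E16. Mcm6 had a like course, with 2387, 3023 and 728.7, 4.15-fold lower at P3 than at E18. By these probe sets Mcm4 and Mcm6 were highest at E18, whereas Mcm3 was highest at E16. The other Mcm4 probe set (1762, 1004 and 437.0) was highest at E16, as was the other measured one of Mcm6 (2122.5, 943.1 and 479.2). Mcm3 read 2232, 1118 and 330.0, a signal 3.39-fold lower at P3 than at E18 and 6.76-fold lower than at E16. Mcm2, the subunit that also carries histones at the fork, read 1094, 767.0 and 593.2 and was 1.29-fold lower at P3 than at E18, the second smallest difference of all members. Its other probe set, however, read 1476, 599.6 and 232.4, 2.58-fold lower.

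Among the factors that start the helicase, 3 of 4 were lower by 2-fold or more at P3 than at E18. Gins2, of the GINS complex that joins the ring, read 729.9, 680.3 and 158.6 at E16, E18 and P3, 4.29-fold lower at P3 than at E18. Its partner Gins1 read 375.2, 239.5 and 97.6, 2.45-fold lower. Cdc45, which with GINS completes the active helicase, read 358.3, 307.3 and 128.9, 2.38-fold lower. By these probe sets all 3 were lower at each later stage. The other Cdc45 probe set (250.4, 157.0 and 121.3) had its larger difference between E16 and E18, and the other of Gins2 (184.5, 221.2 and 59.9) was highest at E18. Mcm10, needed for the helicase to begin moving, read 1029, 677.2 and 473.2, a difference of 1.43-fold at P3 against E18 and 2.17-fold against E16.

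Origin licensing and its control held genes with unlike courses between E16 and E18, but all 7 were lower by 2-fold or more at P3 than at E18 (median 2.93-fold). Dtl, the substrate receptor of the ubiquitin ligase that destroys Cdt1 in S phase, read 1118, 2509 and 273.2 at E16, E18 and P3. It was 9.18-fold lower at P3 than at E18, the fifth lowest value of 12122 genes, but this rests on 1 probe set. Its 4 other measured probe sets gave log2 differences of -0.69 to -1.26. Gmnn encodes geminin, which binds Cdt1 and blocks relicensing. It read 1062, 1752 and 223.6, 7.84-fold lower at P3 than at E18. Cdt1, the target of both, read 794.9, 776.5 and 366.8, 2.12-fold lower. By these probe sets both inhibitors of Cdt1 differed more than Cdt1 itself, although 3 of the 4 other Dtl values were closer to 0 than the log2 difference of -1.08 for Cdt1.

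Cdc6, the loader that works with Cdt1, read 698.7, 349.4 and 74.1 at E16, E18 and P3. With P3 under the floor, it was lower by at least 4.26-fold against E18 and by at least 8.52-fold against E16. Cdc7, the kinase that fires licensed origins, read 2746, 968.6 and 330.4, which is 2.84-fold lower at E18 against E16 and 2.93-fold lower again at P3. Cdc7 and Cdc6 were therefore already lower at E18. The origin recognition subunits took another course. Orc1, the subunit that comes and goes with the cycle, read 371.7, 426.8 and 184.4, 2.31-fold lower at P3 than at E18. Orc6, the smallest subunit, read 529.7, 1068 and 436.6, 2.45-fold lower at P3 than at E18 but 1.21-fold lower than at E16.

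The sliding clamp and its loader were all lower by 2-fold or more at P3 than at E18 (4 of 4, median 2.75-fold). Pcna, the ring that holds polymerases on DNA, read 1467, 1453 and 604.8 at E16, E18 and P3, 2.40-fold lower at P3 than at E18 and level between the embryonic arrays. Rfc4, 1 of the subunits that open the ring, read 360.8, 1265 and 167.9. It was 3.51-fold higher at E18 than at E16, the largest increase of the set, and 7.54-fold lower at P3 than at E18. Its second probe set followed the same course with 143.6, 342.6 and 68.1. Rfc3 was dim, with 91.1, 176.8 and 75.1, and was lower by at least 2.16-fold at P3 against E18. Rfc5 read 709.1, 498.7 and 158.9, 3.14-fold lower, with no peak at E18. Subunits of the same loader therefore differed in which embryonic stage was higher, while P3 was lowest for each.

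Of the polymerase and primase genes, 4 of 5 measured were lower by 2-fold or more at P3 than at E18 (median 2.76-fold). Prim1, the catalytic primase subunit that lays down RNA primers, read 1956, 1568 and 257.6 at E16, E18 and P3. It was 6.09-fold lower at P3 than at E18, and a second probe set with 1392, 958.2 and 236.7 also stayed far lower at P3. Its partner Prim2 read 418.7, 439.9 and 117.5, 3.74-fold lower, whereas its other measured probe set, with 276.3, 239.9 and 183.7, was 1.31-fold lower. Prim1 thus differed strongly by both of its probe sets and Prim2 by 1 of them. Pola1, the catalytic subunit, read 726.4, 681.6 and 304.7, 2.24-fold lower. Pola2, the regulatory subunit, read 180.7, 182.7 and 98.7, 1.85-fold lower. Pold1, the catalytic subunit of the lagging-strand polymerase delta, read 747.9, 663.8 and 240.4, 2.76-fold lower.

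Genes that handle single strands, flaps, nicks and stalled forks were less uniform, with 3 of 5 lower by 2-fold or more at P3 than at E18. Rpa2, a subunit of the protein that coats single-stranded DNA, read 615.5, 592.0 and 137.5 at E16, E18 and P3, 4.31-fold lower. Fen1, which trims flaps between Okazaki fragments, read 1591, 2317 and 836.6, 2.77-fold lower at P3 than at E18. Lig1, which seals the nicks left after that, read 1220, 729.6 and 377.3, 1.93-fold lower at P3 than at E18 and 3.23-fold lower than at E16. Fen1 and Lig1 act one after the other, yet Fen1 was highest at E18 and Lig1 at E16. The fork protection partners Timeless and Tipin also parted. Timeless read 1158, 576.0 and 124.9, 4.61-fold lower at P3 than at E18 and 9.27-fold lower than at E16, and its second probe set was 3.37-fold lower than at E18. Tipin read 1037, 1336 and 846.5, 1.58-fold lower at P3 than at E18 and 1.22-fold lower than at E16.

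Nucleotide supply had 3 of 4 genes lower by 2-fold or more at P3 than at E18 (median 3.11-fold). Rrm1 and Rrm2 form ribonucleotide reductase, which makes deoxynucleotides. Rrm1 read 3141, 2646 and 541.3 at E16, E18 and P3, 4.89-fold lower at P3 than at E18, whereas its dimmer probe sets gave 1.16-fold lower and 1.24-fold higher. Rrm2, the subunit made in S phase, read 1313, 1801 and 724.5, 2.49-fold lower. Another Rrm2 probe set read 1998, 1896 and 275.1, 6.89-fold lower, and its dimmest gave at least 1.51-fold lower. The direction for Rrm2 was shared by its 3 probe sets and the size was not. Tk1, the S-phase thymidine kinase, read 1026, 515.4 and 132.3, 3.89-fold lower at P3 than at E18 and 7.76-fold lower than at E16. Tyms, which makes thymidylate, read 111.7, 113.1 and 88.7, the smallest difference of all members at 1.28-fold. All 3 Tyms signals lay close to the floor, and its 3 other probe sets lay below it.

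For chromatin assembly, Uhrf1 and Chaf1b were measured. Uhrf1, which brings the maintenance DNA methyltransferase to newly copied DNA, read 1406, 1668 and 366.7 at E16, E18 and P3, 4.55-fold lower at P3 than at E18. Chaf1b, a subunit of the complex that loads histones behind the fork, read 396.3, 247.0 and 126.3, 1.96-fold lower. Chaf1b was 3.14-fold lower at P3 than at E16, so its signal too was lowest at P3.

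All 5 recombination and resection genes were lower by 2-fold or more at P3 than at E18 (median 3.04-fold). Rad54l, a motor protein of homologous recombination, read 1778, 636.2 and 134.9 at E16, E18 and P3. It was 4.72-fold lower at P3 than at E18, and its 13.2-fold difference from E16 was the second lowest value of 12205 genes. Its other measured probe sets differed less, with 2.72-fold and 3.09-fold lower signals at P3 against E18 and 4.61-fold and 3.83-fold against E16. Brca1, an organiser of break repair, read 1268, 497.3 and 243.3, 2.55-fold lower at E18 against E16 and 2.04-fold lower at P3 against E18. Brca2, a mediator of break repair by recombination, read 518.7, 787.3 and 347.6, 2.26-fold lower at P3 than at E18 and 1.49-fold lower than at E16. Brca1 and Brca2 thus went opposite ways between E16 and E18 and were both lowest at P3. Blm, a helicase that unwinds recombination intermediates, read 795.2, 1011 and 269.5, 3.75-fold lower at P3 than at E18. Exo1, a nuclease that resects DNA ends, read 545.3, 422.9 and 139.3, 3.04-fold lower.

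**Figure D3:**
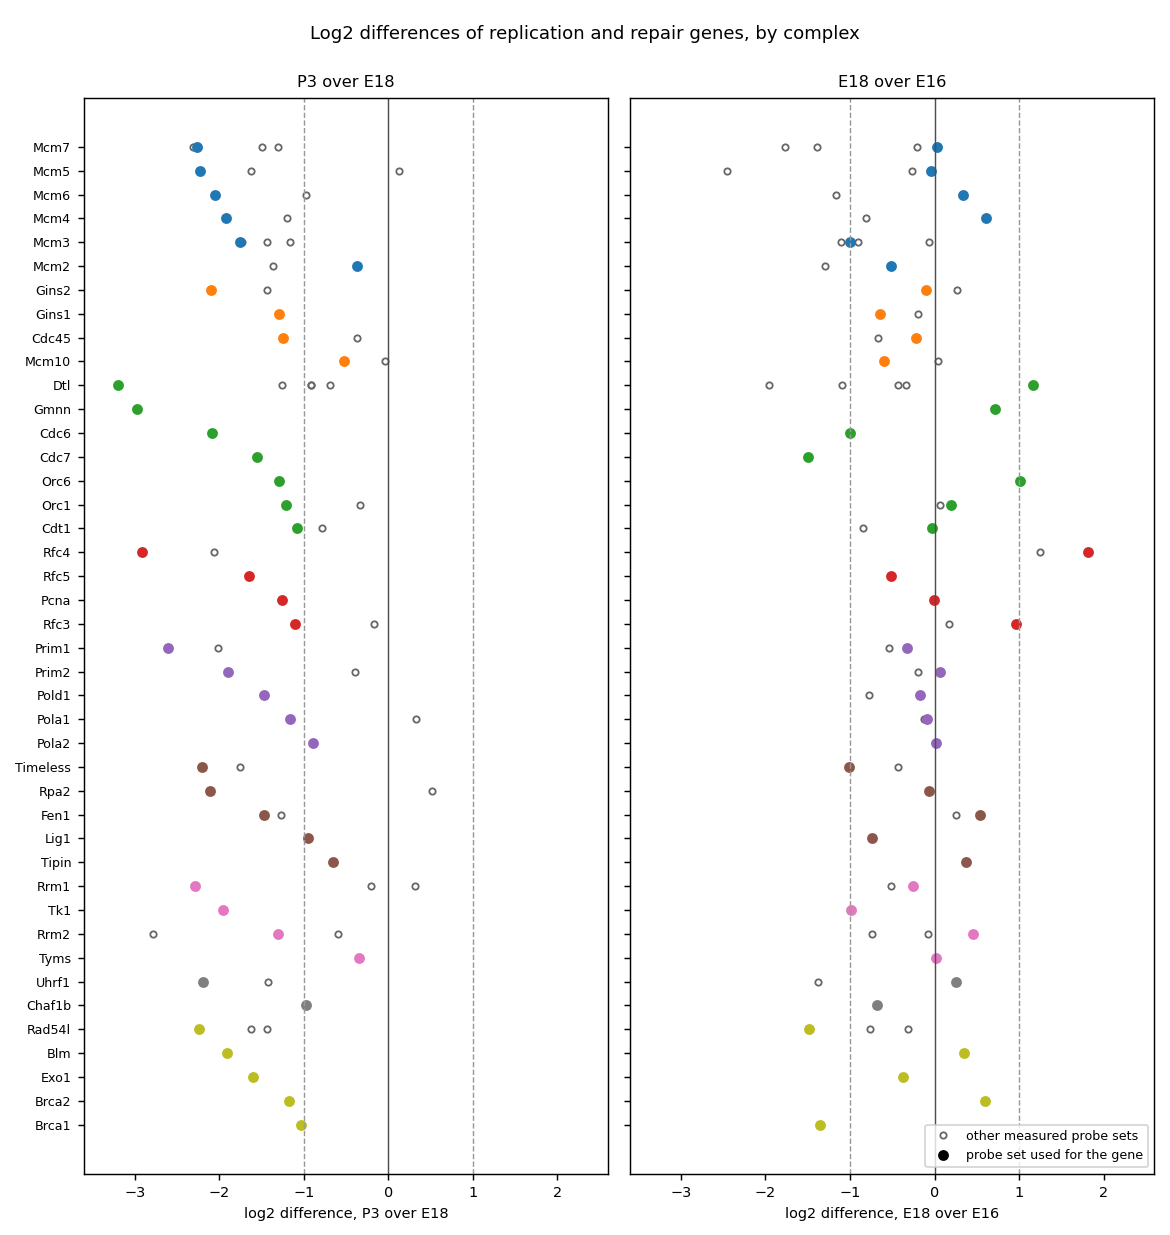
Log2 difference of each measured replication and repair gene at P3 over E18 (left) and E18 over E16 (right); colours mark the 9 functional groups in the order of the text, filled points are the probe set used for the gene, open points its other measured probe sets, and dashed lines 2-fold. At P3 over E18 all 42 filled points lie left of 0, whereas at E18 over E16 they lie on both sides, 24 lower and 18 higher.

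Of the 14 members that departed from the common course, 7 did so at the first step and 7, namely Mcm2, Mcm10, Pola2, Lig1, Tipin, Tyms and Chaf1b, by a difference under 2-fold at both steps. Cdc7, Timeless, Rad54l and Brca1 were lower by 2-fold or more at each step (4 of 42, against 0.391% of all genes). At the first step this rests on 1 of 3 measured probe sets for Rad54l and on 1 of 2 for Timeless. Mcm3 at 1.996-fold, Tk1 at 1.991-fold and Cdc6 came just short of the threshold at the first step. By the chosen probe sets, Orc6, Dtl and Rfc4 were higher at E18 than at E16 and then lower at P3, each by 2-fold or more. For Dtl, however, 4 of 5 measured probe sets were lower at E18 than at E16, 2 of them by 2-fold or more. At the first step Orc6 (2.02-fold) and Timeless (2.01-fold) barely passed. Highest signals of the chosen probe sets fell at E16 in 24 members and at E18 in 18. Every group held members of both directions at this step except the helicase activators, of which all 4 were lower at E18.

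Several probe sets of 1 gene give a limited look at measurement error here. They share the same arrays and pools, so their spread holds no variation between repeated arrays or pools. At P3 against E18, 73 of 77 measured member probe sets were lower and 54 lower by 2-fold or more. Of 24 members with at least 2 measured probe sets, 20 had all of them lower, and 10 had all of them lower by 2-fold or more. The 4 with probe sets of both signs were Mcm5, Pola1, Rpa2 and Rrm1, where the higher probe set gave a log2 difference of 0.13, 0.33, 0.51 and 0.31. The SD between probe sets of a gene was 0.84 for members and 0.55 for all genes on the log2 scale. At P3 against E16, 22 of 24 had all probe sets lower. Between E18 and E16 the agreement was poorer, with probe sets of both signs in 9 of 25 members. Among them, Mcm6 gave log2 differences of 0.34 and -1.17, Mcm4 0.61 and -0.81, Uhrf1 0.25 and -1.38, and Dtl values between 1.17 and -1.96.

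The kind of probe set was compared as well. Affymetrix marks probe sets that may detect several transcripts by an ID ending such as _s_at, _x_at or _a_at, and others end in plain _at. Of 16 members measured by both kinds, 12 had a higher E18 over E16 difference by the several-transcript kind than by the plain kind, with median log2 differences of -0.14 and -0.71. Over all 2286 genes measured by both, 64.0% had the higher difference by the several-transcript kind (medians 0.10 and -0.13). At P3 against E18 the medians for 15 members were -1.44 and -1.43. Within genes, however, the several-transcript kind gave the higher difference in 6 members and the plain kind in 9, with a median difference of -0.3. Over all 2264 genes measured by both, 37.5% had the higher difference by the several-transcript kind (medians -0.39 and -0.16). The 3' over 5' actin ratio, given above, was also higher at E18 than at E16, and its part was not tested. By the chosen probe sets, 11 of the 18 members higher at E18 and 14 of the 24 lower ones were read by plain probe sets. These counts compare different genes, so they cannot show what the kind of probe set does within a gene. With several-transcript probe sets left out, 7 members were lower and 3 higher at E18 by 2-fold or more.

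**Figure D4:**
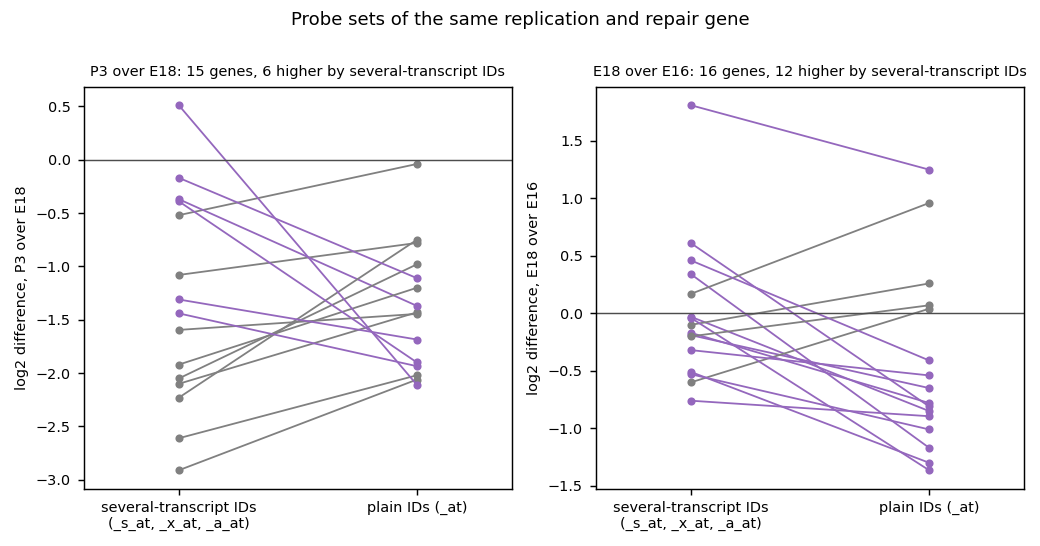
Log2 differences of replication and repair genes measured by both kinds of probe set, as the mean of each kind, at P3 over E18 (left, 15 genes) and E18 over E16 (right, 16 genes); each line is 1 gene, and purple lines are genes whose difference was higher by the several-transcript kind. On the right 12 of 16 lines are purple, on the left 6 of 15.

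Genes of the same pathways outside the set, in lists chosen by function, were less uniformly lower at P3. The members and these lists were chosen with earlier results of these data known. The part of that choice in the contrast was not tested. Of 32 other replication genes, 13 (40.6%) were lower and 0 higher by 2-fold or more at P3 against E18, with a median log2 difference of -0.82. Dbf4, the activating partner of Cdc7, read 948.6, 672.1 and 166.9 at E16, E18 and P3, 4.03-fold lower at P3 than at E18. Dscc1, of an alternative clamp loader, read 577.9, 404.4 and 104.5, 3.87-fold lower, and ribonuclease H2 subunits Rnaseh2a and Rnaseh2b were each 3.42-fold lower. Of 13 other nucleotide supply genes, 9 were lower by 2-fold or more and 0 higher. Dut, which keeps uracil out of DNA, read 2615, 1591 and 278.2, 5.72-fold lower. Dck, a salvage kinase, was 4.63-fold, and the folate and purine enzyme genes Mthfd1 and Gart were 3.96-fold and 3.71-fold lower.

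Paralogues that act outside S phase gave other values. Rrm2b, the reductase subunit used by non-dividing cells, read 337.6, 478.2 and 533.9 at E16, E18 and P3, 1.12-fold higher at P3 against E18, while Rrm2 was 2.49-fold lower. The mitochondrial thymidine kinase gene Tk2 was below the floor on all 3 arrays (64.7, 58.2 and 55.3), so it has no difference to set beside that of Tk1. The end-joining ligase gene Lig4 read 274.9, 177.6 and 194.5, a log2 difference of 0.13 at P3 against E18.

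Among other chromatin assembly genes 4 of 10 were lower by 2-fold or more, namely the histone chaperone genes Nasp (3.70-fold) and Asf1b (2.71-fold), the remodeller gene Hells (3.38-fold) and the histone acetyltransferase gene Hat1 (2.73-fold). Of 20 other recombination and Fanconi genes 6 were, among them Ube2t (3.31-fold), Fancb (3.19-fold) and Rmi1 (3.17-fold). Base excision repair had 3 of 12, namely Ung (4.69-fold), Apex1 (3.59-fold) and Parp1 (2.04-fold), and mismatch repair 0 of 5, with Msh6 (1431, 724.4 and 362.7) just under the threshold. Nucleotide excision repair, which removes bulky lesions at any phase, had 1 of 12 (8.33%, close to the 11.7% of all genes), Cetn2 at 2.43-fold, and a median of -0.15, as over all genes. End joining had 2 of 7, Xrcc6 (2.64-fold) and Trp53bp1 (2.04-fold), and the checkpoint list 1 of 12, Chek1 (3.42-fold). Some of these folds depended on the probe set. Log2 differences ran from -1.66 to 0.23 for Rmi1, from -1.76 to -0.07 for Hells and from -1.03 to 0.01 for Trp53bp1. All measured probe sets of Nasp, Apex1, Parp1, Cetn2 and Chek1 were lower, and the other genes named here had 1 each.

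Against E16 more genes of most of these lists were lower by 2-fold or more at P3, where 15.4% of all genes were. Other replication genes had 17 of 32, other nucleotide supply 7 of 13, chromatin assembly 6 of 10 and other recombination and Fanconi genes 9 of 20. Mismatch repair had 3 of 4 with a median log2 difference of -1.65, near the -1.70 of the replication and repair members, in contrast to its 0 of 5 against E18. Base excision repair and the checkpoint list each had 5 of 12, end joining 2 of 9 and nucleotide excision repair 1 of 14, and no gene of these lists was higher by 2-fold or more.

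**Figure D5:**
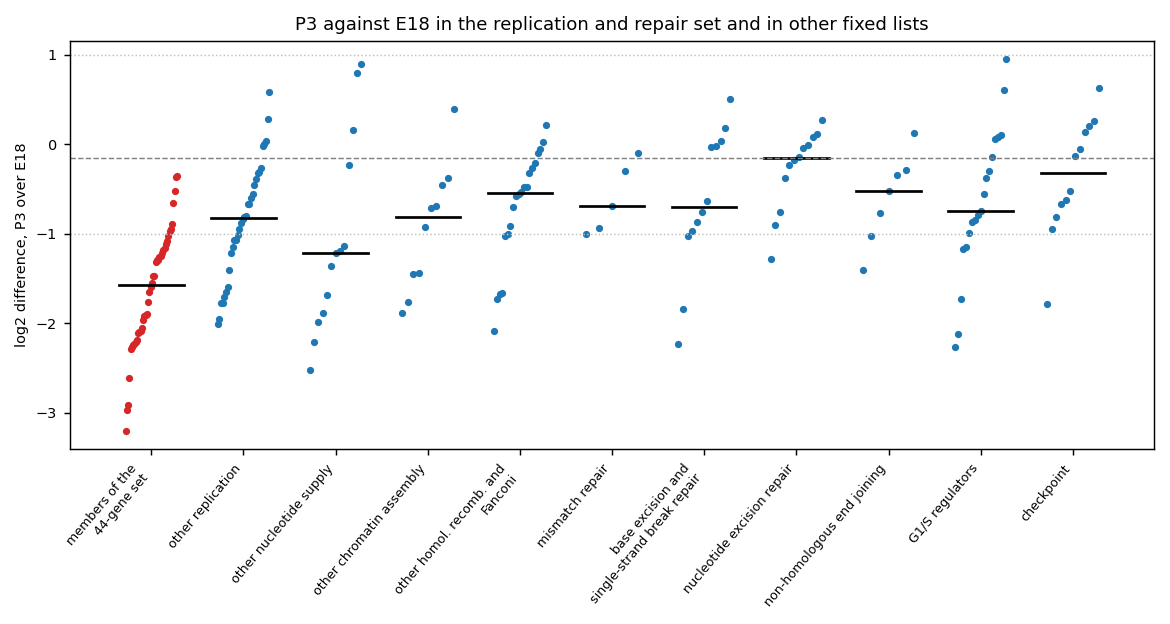
Log2 difference at P3 over E18 for the 42 measured replication and repair genes (red) and for 10 other lists of pathway genes (blue); each point is 1 gene, sorted within its list, black bars are medians, the dashed line is the median of all genes (-0.15) and dotted lines mark 2-fold. The red median is -1.58 and the blue ones run between -1.22 for nucleotide supply and -0.15 for nucleotide excision repair.

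Regulators of the G1/S transition, which control these genes, had 5 of 19 lower and 0 higher by 2-fold or more at P3 against E18. Ccna2, the S-phase cyclin, read 976.5, 936.4 and 194.1 at E16, E18 and P3, 4.82-fold lower. The repressor genes E2f7 and E2f8 were 4.36-fold and 3.31-fold lower and Cdk2, the kinase partner of cyclins E and A, 2.26-fold. The last of the 5, named after its value was seen, was the cyclin gene Ccne2 at 2.22-fold. E2f1, an activator of replication genes, read 544.5, 137.8 and 65.3, so its largest difference lay earlier, with a log2 difference of -1.98 at E18 against E16. Ccne1, the cyclin that drives entry into S phase, had the same order, with 1442, 480.8 and 277.7. Against E16, 11 of 19 were lower by 2-fold or more at P3 and 4 higher. Those 4, named after their values were seen, were the CDK inhibitor genes Cdkn1a, Cdkn1b and Cdkn1c and the retinoblastoma gene Rb1. Cdkn1a, which encodes p21, read 179.9, 1182 and 1799, 6.57-fold higher at E18 than at E16 and higher again at P3, with a log2 difference of 3.32 from E16. Cdkn1b read 217.7, 505.2 and 535.6 and Cdkn1c 1524, 1903 and 3664. The inhibitor genes Cdkn1a and Cdkn1b were thus already higher at E18, when most replication members were within 2-fold of E16.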

How the data were processed

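Total RNA of pooled papillae was labelled by a 2-cycle method and hybridised to 1 array per stage, per the labels' protocols. GCOS is named per the submitters' processing notes, without a version; how signals were scaled and centred is not given in the sources used here. The deposited file holds, for 45101 probe sets, a linear ratio to the probe set's own middle value, which was 1 within 1e-06 in 90.4%. In the other 4347 the deposited ratios lay on whole steps of 1 size per array (at least 99.95% within 0.01 of a step), as when 10 replaces a lower divisor. These gave array factors relative to P3 of 0.7177 for E16 and 1.0802 for E18. Taking signals to carry 1 decimal, the smallest whole multiples fitting all 3 ratios within a relative 3e-07 were used as signals. A recovered signal is never above the true one, and large ones may be chance solutions. Signals of different probe sets are set side by side in picking a gene's probe set, in the marker sums and in the 3' over 5' ratios. The common floor and words such as dim also rest on them, and all these uses share that limit. The design had assumed signals, so this recovery was added after seeing the data.

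For 18 spike-in hybridisation controls the median ratio to E16 was 2.17 at E18 and 1.04 at P3. Their median ratio of P3 to E18 was 0.45, so these controls too were lower at P3 than at E18. The part of these ratios in the lower member signals at P3 was not tested. The number of arrays limits the precision. Names came from the platform annotation. The members, lists, 2-fold threshold and alternatives were chosen with earlier results of these data known. All members are accounted for; from each other list, up to 4 genes with the largest 2-fold decreases at P3 against E18 are named with fixed pairs and cell cycle genes, except 1 gene that is not reported here. Python 3.11.15, numpy 2.4.6 and pandas 2.3.3 were used, and the steps were tested on simulated data. Alternatives covered scaling, floor, probe set choice and threshold.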

Additional observations from a re-analysis of the deposited data

How the results depend on the processing

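The member median at P3 against E18 stayed between -1.63 and -1.17 and at P3 against E16 between -1.94 and -1.12 under 9 planned and 3 added alternatives (thresholds aside), and no member was higher by 2-fold or more in either. At P3 against E18, 21 members passed a 3-fold threshold and 23 were 2-fold lower by the measured probe set with the smallest difference, an alternative chosen after seeing the data. By that choice Mcm5 (0.13), Pola1 (0.33 and, against E16, 0.22) and Rpa2 (0.51 in both) turned positive. Under quantile normalization all genes had a median of 0.03 at P3 against E18 (main -0.15) and 0.02 at P3 against E16 (main -0.17), which left 27 members lower by 2-fold or more in each; relative to all genes the members' median was -1.38 and -1.48 (main -1.43 and -1.53). Scaling to the probe sets that reached the floor at every stage, also added later, left 31 and 27. Between E18 and E16, where main counts were 4 lower and 3 higher, 2 were lower by the median over probe sets (median log2 difference -0.33), 7 without several-transcript probe sets and 2 by the smallest difference; 11 lower and 7 higher passed 1.5-fold, and 0 lower and 1 higher 3-fold. Dtl turned to -0.43 and -0.34 there by the median over probe sets and by the smallest difference. Over all genes, 1415 were lower by 2-fold or more at P3 against E18, 3098 at 1.5-fold, 400 at 3-fold, 2523 with no floor, 821 by the smallest difference and 860 under quantile normalization. At P3 against E16 these counts were 1878, 3644, 636, 2934, 1161 and 1257, with 1152 under the scaling to probe sets that reached the floor, and at E18 against E16 961, 2373, 229, 2127, 596 and 842. The cause of these changes was not tested. Of 1239 single-gene values, 7 of 2-fold or more changed sign, as given here; of the others 1151 moved by less than the SD between probe sets and 81 by more, and 28 of these, under 2-fold in the main setting, changed sign, 24 of them between E18 and E16. No paired analysis was possible because each stage has 1 array. With 1 array per stage, signals near the floor, such as those of Tyms and Rfc3, limit the folds that can be seen.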
